A study of Mus musculus with 18 samples.

Results

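The cells described here are mouse embryo cells at embryonic day (E) 6.75 and E7.5 that held a transcript of T and no transcript of Mesp1 or Foxa2. A cell was taken if it had one of the 96 used barcodes of its library, at least 2000 nuclear transcripts, under 5 transcripts of Ttr, Apoa1 and Spink1 together per 10000, T of at least 1, and Mesp1 and Foxa2 of 0. They are called gated cells below. There were 198 of them among 1728 used barcodes, 72 at E6.75 and 126 at E7.5. Of all barcodes, 972 reached the depth limit, and 922 of these lay under the limit on the 3 visceral endoderm genes, 495 at E6.75 and 427 at E7.5. The choice rests on measured values, so T, Mesp1, Foxa2, Ttr, Apoa1, Spink1 and the depth are given as a description with no test.

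T encodes the T-box transcription factor Brachyury, which is switched on in the primitive streak, the posterior region of the epiblast through which cells leave to form mesoderm and endoderm. Mesp1 marks the earliest mesoderm that leaves the streak, and Foxa2 marks the cells that give definitive endoderm and axial mesoderm. As gastrulation goes on, T also stays on in the caudal epiblast, where cells that can give both spinal cord and paraxial mesoderm carry T together with Sox2, and early Hox and Cdx genes come on there.

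All embryos were C57BL/6 wild type and all libraries were labelled whole embryo. At E6.75 the extraembryonic part was removed, embryos were dissociated one by one, and cells were picked by hand into CEL-Seq2 reactions, which gave 6 libraries. At E7.5 embryos were cut so that extraembryonic mesoderm was kept, the embryos of 1 or 2 litters were pooled, and cells were sorted by flow cytometry into the miniaturised mCEL-Seq2 format, which gave 12 libraries. The study states 576 picked and 1172 sorted cells, and the files hold 576 and 1152 used barcodes. Stage, the part of the conceptus taken, the way of collecting and the protocol version changed together and cannot be told apart. Nothing in the labels ties a cell or a library to an embryo, so the p-values below measure the spread between libraries, which may be partly technical.

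Libraries entered a comparison with at least 3 gated cells, which held for 6 libraries at E6.75 (6 to 24 cells, median 10.5) and 10 at E7.5 (3 to 28 cells, median 8.5). Replicates 5 and 8 at E7.5 had 0 gated cells. Summed over its gated cells, a library held 290816 to 1262740 transcripts (E6.75) or 19192 to 949692 (E7.5). The lowest sum came from the 3 cells of E7.5 replicate 9, and values of 0 or 1 transcript in that library carry little information. The median depth of a gated cell was 45439.5 transcripts at E6.75 and 26920.5 at E7.5. Mitochondrial transcripts took 12.7% to 21.0% per library at E6.75 (median 16.7%) and 8.07% to 13.9% at E7.5 (median 11.1%) in the gated cells. Their part in the results below was not tested, except that depth per cell was used as a covariate.

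T itself was low in most of the gated cells at E6.75. It stood at exactly 1 transcript in 39 of 72 cells (54.2%) at E6.75 and in 43 of 126 (34.1%) at E7.5, and at 5 or more in 11 (15.3%) and 49 (38.9%). The median was 0.436 per 10000 transcripts at E6.75 (range 0.0859 to 12.5) and 1.83 at E7.5 (range 0.105 to 57.3). The mean of a library was between 0.911 and 1.26 per 10000 at E6.75 and between 0.412 and 11.99 at E7.5. E7.5 replicate 7 held the lowest mean and was the one library of its stage below the whole E6.75 range.

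Visceral endoderm cells, which should lack T, served as the background. At E6.75, 5 of 48 of them (10.4%, exact 95% interval 3.47% to 22.7%) held a T transcript, at a median depth of 24031.5, and 2 of the 5 held more than 1. Among the embryonic cells, 151 of 495 (30.5%) held T at E6.75 and 282 of 427 (66.0%) at E7.5. The E6.75 share lay above the interval of the visceral endoderm cells, but it includes cells with Mesp1 or Foxa2, which are outside the gate. The gated cells alone had a median share of 12.7% per library at E6.75, within that interval. They were also deeper, so T in them is not shown to exceed the background. A single T transcript was met in 3 of those 48 cells. At E7.5 only 2 visceral endoderm cells were kept. Of these, 1 held T, at 2 or more transcripts (50%, exact 95% interval 1.26% to 98.7%), so the E7.5 share has no usable background. Intervals here cover counting error only. Of the cells with T, 79 at E6.75 and 156 at E7.5 were left out for Mesp1 or Foxa2, and 12 and 44 of these were left out by a single transcript. At the depth limit, the lowest gated cells held 2023 and 2211 transcripts, and the highest cell just under the limit that met the other criteria held 1996. At the visceral endoderm limit, the highest gated cells held 3.07 and 3.49 per 10000 and the nearest cell beyond it 131.93. The gated cells made up 7.41% to 27.3% of the embryonic cells of a library at E6.75 (median 12.7%) and 17.4% to 39.4% at E7.5 (median 28.1%).

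**Figure D1:**
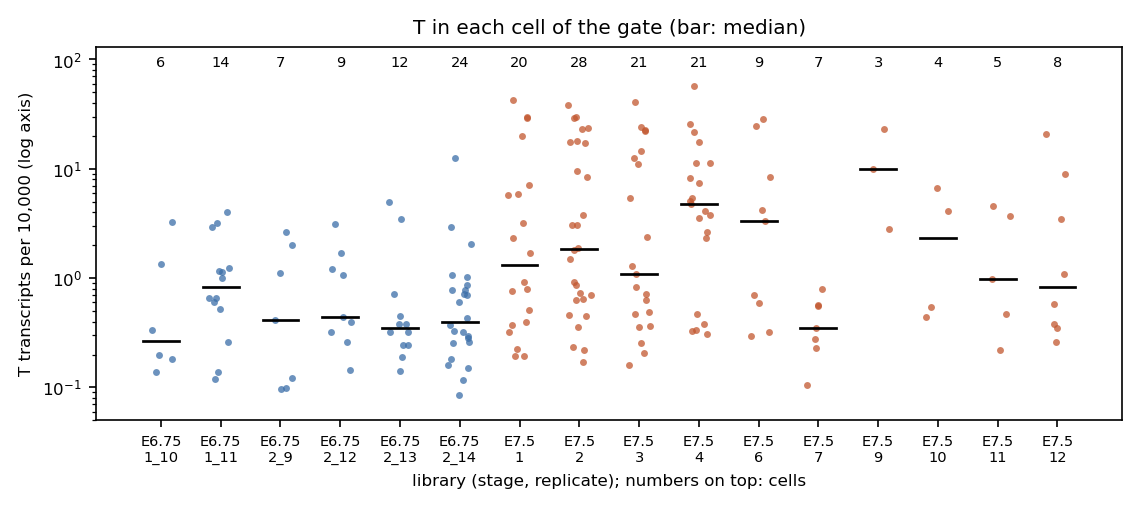
T transcripts per 10000 (log axis) in each gated cell, in the 6 libraries of E6.75 and the 10 of E7.5, with the number of cells above each library and a bar at its median. Cells at E6.75 lie between 0.0859 and 12.5 per 10000, and cells at E7.5 between 0.105 and 57.3.

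Absence of Mesp1 and Foxa2 is often read as absence of commitment. By transcripts of 6 mesoderm genes, gated cells went against that reading less often at E6.75 than at E7.5. A transcript of at least 1 of 6 genes of mesoderm that has left the streak (Tbx6, Mesp2, Msgn1, Hand1, Foxf1 and Pdgfra) was present in 13 of 72 gated cells at E6.75 (18.1%) and in 88 of 126 at E7.5 (69.8%). Transcripts of 2 or more of these genes were present in 0 of 72 and in 58 of 126 (46.0%). By library, the share with any of them ran from 0% to 37.5% (E6.75) and from 47.6% to 100% (E7.5), without overlap. After each cell was thinned to 2000 transcripts, the numbers were 0 of 72 and 37 of 126 (29.4%). The E7.5 cells are therefore called by their rule here, and no other cell type name is given to them.

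Before thinning, this share in gated cells lay between those of 2 neighbouring classes at both stages, and after thinning it did not. Of cells that met the same criteria but had T of 0, called T-negative cells, 36 of 297 (12.1%) held a mesoderm transcript at E6.75 and 73 of 116 (62.9%) at E7.5, and 1 and 34 (29.3%) held 2 or more genes. Of cells with both T and Mesp1 and no Foxa2, called T Mesp1 cells, 16 of 19 (84.2%) held a mesoderm transcript at E6.75 and 104 of 108 (96.3%) at E7.5, and 14 and 85 (78.7%) held 2 or more genes. After thinning, T-negative cells were at 2.02% and 30.2%, T Mesp1 cells at 21.1% and 58.3%, and gated cells at 0% and 29.4%, so gated cells were not above T-negative cells at the same depth. Cells with Foxa2 and no Mesp1 held a mesoderm transcript in 20 of 79 (25.3%) at E6.75 and 28 of 48 (58.3%) at E7.5 unthinned. After thinning, this was 0 and 2 (4.17%). They are another class of embryo cells and no measure of free RNA, whose part was not tested.

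Sox2, a transcription factor of epiblast and neural progenitors, split the gated cells further. At E6.75, 44 cells held Sox2 and no mesoderm transcript, 11 held both, 2 held a mesoderm transcript alone and 15 held neither. At E7.5 these numbers were 21, 38, 50 and 17. Cells with Sox2 and Tbx6 together numbered 0 at E6.75 and 17 at E7.5, and cells with Sox2 and Nkx1-2 together 3 and 35. Nkx1-2 is a homeobox gene of the caudal epiblast. At E7.5 it was found in 71.1% of the gated cells that held both Sox2 and a mesoderm transcript. It was in 48.0% of those with a mesoderm transcript alone and 38.1% of those with Sox2 alone. Hoxb1 was found in 65.8%, 64.0% and 14.3% of the same cells. Their median depths were 34521.5, 20082 and 21399, so a share of cells with a transcript is not read as an order here. The libraries of E7.5 differed in this makeup. In replicate 7, all 7 cells held Sox2 and all 7 held a mesoderm transcript, at the highest median depth of 86640. In replicate 1, 19 of 20 held a mesoderm transcript and 5 held Sox2.

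**Figure D2:**
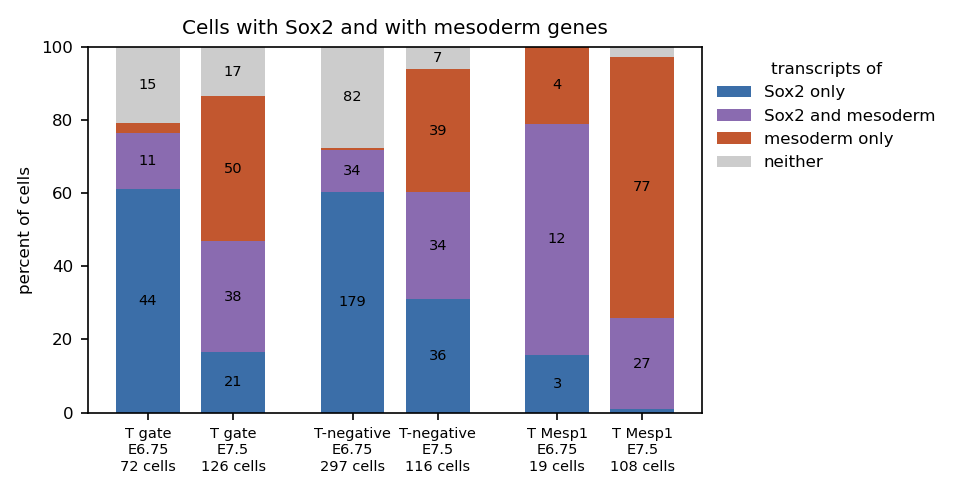
Percent of cells that held Sox2 alone, Sox2 with a transcript of Tbx6, Mesp2, Msgn1, Hand1, Foxf1 or Pdgfra, such a mesoderm transcript alone, or neither, in gated (T gate), T-negative and T Mesp1 cells at E6.75 and E7.5. Among gated cells, the share with Sox2 alone is 61.1% at E6.75 and 16.7% at E7.5, and the share with a mesoderm transcript alone is 2.78% and 39.7%.

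The sequences shown here are those of genes that carry the changes described below: Hoxb1 for the caudal genes that came on, Sp5 and Fgf3 for signalling genes that came on, and Dusp1 and Btg2 for early response genes that fell. Each is the 250 bases before the annotated start in RefSeq, build GRCm38.p6, on the strand of the gene: chr11:96365508-96365757 (plus) for Hoxb1, chr2:70474673-70474922 (plus) for Sp5, chr7:144838362-144838611 (plus) for Fgf3, chr17:26508473-26508722 (minus) for Dusp1 and chr1:134079156-134079405 (minus) for Btg2. Capitals mark 2 motifs, searched on both strands: CTTTGA, a core recognised by the TCF/LEF factors through which WNT acts (TCAAAG on the other strand), and TGACGTCA, the cyclic AMP response element, which reads the same on both strands. The motifs share no overlap with each other.
Hoxb1: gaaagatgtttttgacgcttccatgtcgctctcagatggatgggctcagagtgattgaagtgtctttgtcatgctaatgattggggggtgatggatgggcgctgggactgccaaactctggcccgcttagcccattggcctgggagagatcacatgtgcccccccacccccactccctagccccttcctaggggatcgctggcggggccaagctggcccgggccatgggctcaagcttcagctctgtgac
Sp5: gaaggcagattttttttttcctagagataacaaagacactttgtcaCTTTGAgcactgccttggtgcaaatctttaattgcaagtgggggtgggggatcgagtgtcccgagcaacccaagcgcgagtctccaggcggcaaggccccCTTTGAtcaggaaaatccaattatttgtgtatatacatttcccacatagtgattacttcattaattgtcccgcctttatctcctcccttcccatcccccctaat
Fgf3: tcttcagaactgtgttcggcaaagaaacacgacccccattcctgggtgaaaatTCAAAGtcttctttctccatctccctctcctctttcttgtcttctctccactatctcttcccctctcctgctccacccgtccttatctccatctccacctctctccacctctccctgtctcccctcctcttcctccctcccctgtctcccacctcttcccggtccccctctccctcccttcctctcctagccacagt
Dusp1: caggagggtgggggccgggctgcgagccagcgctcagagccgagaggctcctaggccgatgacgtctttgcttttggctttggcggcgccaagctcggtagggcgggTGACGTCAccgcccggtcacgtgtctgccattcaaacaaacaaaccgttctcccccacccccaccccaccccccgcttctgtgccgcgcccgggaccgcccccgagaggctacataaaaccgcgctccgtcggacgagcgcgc
Btg2: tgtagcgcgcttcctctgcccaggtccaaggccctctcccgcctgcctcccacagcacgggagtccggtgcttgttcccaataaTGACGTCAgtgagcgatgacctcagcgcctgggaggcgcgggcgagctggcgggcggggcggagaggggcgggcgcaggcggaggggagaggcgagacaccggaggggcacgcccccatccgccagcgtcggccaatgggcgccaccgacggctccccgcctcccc
The TCF/LEF core stood 2 times in the Sp5 window and 1 time in that of Fgf3, and 0 times in those of Hoxb1, Dusp1 and Btg2. It was found in 4544 of 32851 such windows (13.8%), in 7 of the 18 WNT pathway genes with a window, in 2 of 13 caudal genes, in 2 of 14 FGF pathway genes (14.3%, near the share of all windows) and in 0 of 13 immediate early and heat shock genes. The cyclic AMP response element was found in 508 windows (1.55%) in 2 of 13 immediate early and heat shock genes, Dusp1 and Btg2, in 1 of 13 caudal genes, and in 0 of the WNT and FGF pathway genes. These are matches of letters and nothing more.

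The comparison of summed gated cells between the stages asks how a cell with T and without the 2 lineage genes differed between E6.75 and E7.5. Of 6179 genes tested, 1096 (17.7%) differed at an adjusted p under 0.05 (edgeR's quasi-likelihood test with Benjamini-Hochberg adjustment), 535 (8.66%) higher and 561 (9.08%) lower at E7.5. For 179 genes (2.9%) the libraries of the stages did not overlap, 37 of them higher (0.599%) and 142 lower (2.3%), and all 179 were among the 1096. The median log2 fold change over all tested genes was 0.02. Values below are CPM (counts scaled to library size) of the summed gated cells of a library, given as lowest, median and highest library, and fold changes are log2, E7.5 minus E6.75. In such sums, fewer cells with a transcript and less RNA per cell cannot be told apart. Adjusted p-values are from the same edgeR test throughout.

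Several caudal genes, among them Hoxb1, Gbx2 and Nkx1-2, were at or near 0 at E6.75 and present at E7.5. Of 19 listed caudal and neuromesodermal genes, 8 passed the filter on low counts, and 7 of these rose and none fell, with a median log2 of 5.35 (5.30 with genes at 0 transcripts in E6.75 at their lower bound) against 0.02 over all genes. Since a gene absent at E6.75 could pass the filter only through E7.5, this count and median describe the genes that passed and test nothing, and the same holds for the paraxial, lateral and neural lists below. Nkx1-2 stood at 0, 0.863 and 2.73 CPM at E6.75 and at 0, 103 and 316 at E7.5, with 0 in replicate 9, and rose by 6.26 (SE 0.69, adjusted p = 1.018e-06). Hoxb1, the first Hox gene of its cluster to come on in the streak region, stood at 0, 0 and 1.78 CPM and at 0, 139 and 321, where the 0 was replicate 11. It had 1 transcript in all gated cells of E6.75 and 559 in those of E7.5, a ratio of 539 after scaling to depth (counting interval 96.4 to 21336, adjusted p = 1.52e-06). Hoxb1 was seen in 1 of 72 cells and in 67 of 126 (53.2%).

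Gbx2, a homeobox gene of the posterior epiblast, had 2 and 359 transcripts, a ratio of 173 (47.6 to 1435, adjusted p = 3.857e-07). Meis2, which encodes a cofactor of Hox proteins, stood at 0, 2.68 and 13.7 CPM and then at 0, 83.8 and 124, and rose by 4.19 (SE 0.48, adjusted p = 1.481e-06). Cdx2, a caudal homeobox gene that is also a trophoblast gene, rose by 4.43 (adjusted p = 3.37e-05). Its fold change was 6.86 without E6.75 replicate 2_12, the library with 14.3 CPM. Sp8, a zinc finger gene of the WNT response, rose by 1.55 (adjusted p = 0.0007998). Epha1, an ephrin receptor gene, was at −0.48 (adjusted p = 0.1754). Cdx1 was not tested, with 0 and 110 transcripts, at least 35.4-fold higher at E7.5 against a floor of 3 counts over the stage.

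Some paraxial mesoderm genes also came on. Of 17 listed genes 4 were tested, and 3 rose and none fell (median 4.47), with Tbx6 and Pcdh19 at or near 0 at E6.75. Tbx6, which diverts cells from neural to paraxial mesoderm fate, had 0 transcripts in all 6 libraries of E6.75 and stood at 0, 34.0 and 91.1 CPM at E7.5. The 0 was replicate 11, and the sums of 0 and 156 transcripts make it at least 50.2-fold higher at E7.5 (adjusted p = 2.443e-05). Tbx6 was present in 0 of 72 cells and in 37 of 126 (29.4%). Rspo3, which encodes a secreted amplifier of WNT signals, rose by 4.24 (SE 0.62, adjusted p = 3.37e-05), and Pcdh19, a protocadherin gene, by 4.69 (adjusted p = 0.0003967). Lef1, a WNT effector gene, was at 0.63 (adjusted p = 0.1298). Without E7.5 replicate 1 or without replicate 3, 2 genes of this list were tested and 1 rose. The listed genes that were not tested differed in level. Msgn1 had 0 and 8 transcripts, Mesp2, the neighbour of Mesp1, had 0 and 9, and Ripply2 had 0 and 7. By contrast, Dll1 had 2 and 119, Hes7 had 2 and 95, and Aldh1a2 had 0 and 168.

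Lateral and extraembryonic mesoderm genes were in the gated cells of E7.5 as well. Of 18 listed genes 6 were tested, 4 rose and 1 fell (median 2.44). Pdgfra, the receptor gene of mesodermal cells, stood at 0, 0 and 3.16 CPM at E6.75 and at 5.45, 38.8 and 248 at E7.5, with no overlap, and rose by 5.21 (SE 0.80, adjusted p = 5.317e-05). Hand1, a basic helix-loop-helix factor of extraembryonic and lateral mesoderm, stood at 0, 2.65 and 32.1 CPM and then at 19.4, 107 and 686, and rose by 4.27 (SE 0.76, adjusted p = 0.0002885). The stages overlapped in Hand1 through E6.75 replicate 2_12 at 32.1. Ifitm1, an interferon-induced membrane protein gene of nascent mesoderm, rose by 2.73 (adjusted p = 2.215e-05). Msx1, a BMP target gene, was at 1.19 (adjusted p = 0.1435).

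Bmp4, a ligand gene of this tissue, rose by 2.16 (adjusted p = 0.03375), but the call rested on single libraries. Leaving out any of 7 libraries gave an adjusted p between 0.0507 and 0.0952, namely E6.75 replicates 1_10, 1_11, 2_13, 2_14 and 2_9 and E7.5 replicates 12 and 1. Without E6.75 replicate 2_12, its change was 3.42. Without E7.5 replicate 1, which had the highest Pdgfra and Hand1 levels, 5 genes of the lateral list were tested and 2 rose.

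Epiblast and pluripotency genes went down in the gated cells, in unequal measure. Of 19 listed genes 17 were tested, with 12 lower, 1 higher and 4 uncalled (median −1.38). Dppa5a, an RNA-binding protein gene of pluripotent cells, stood at 40.9, 67.9 and 85.6 CPM at E6.75 and at 0, 4.88 and 13.6 at E7.5, with no overlap, and fell by 3.79 (SE 0.36, adjusted p = 1.01e-07). Foxd3, a factor of the pluripotent epiblast, fell by 3.08 (adjusted p = 9e-05), and was at −1.58 in the stricter gate described below (adjusted p = 0.106). Tdgf1, the NODAL coreceptor gene, stood at 332, 397 and 528 CPM and then at 4.53, 39.5 and 287, and fell by 2.71 (SE 0.44, adjusted p = 0.000118). L1td1, another RNA-binding protein gene, fell by 2.16 (adjusted p = 1.769e-06) and Utf1, a chromatin protein gene, by 1.96 (adjusted p = 0.0004498).

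Nanog, Otx2 and Pou3f1 fell by less than the genes just named, and Pou5f1 and Sox2 were not called. Nanog stood at 178, 209 and 278 CPM and then at 33.4, 64.4 and 148, and fell by 1.38 (adjusted p = 0.00019). Otx2, an anterior and epiblast homeobox gene, fell by 1.24 (adjusted p = 0.005032) and Pou3f1 by 1.49 (adjusted p = 0.006548). Pou5f1, the gene of OCT4, stood at 234, 411 and 563 CPM and then at 137, 356 and 541, a change of −0.35 (SE 0.21, adjusted p = 0.2582). Sox2 stood at 39.2, 90.3 and 282 CPM and then at 0, 82.2 and 321, a change of 0.02 (SE 0.46, adjusted p = 0.9903). The libraries overlapped widely for both, and the width of 2 SE around the Sox2 value leaves room for changes in either direction.

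Several smaller falls in this list rested on single libraries. Dppa4 fell by 1.97, with an adjusted p of 0.0706 without E6.75 replicate 2_14. Dnmt3b, the de novo DNA methyltransferase gene, fell by 0.74, with an adjusted p of 0.0645 without replicate 2_13 and 0.0673 without 2_9. Slc7a3, an amino acid transporter gene, fell by 1.14, with an adjusted p of 0.0528 without 2_9. When the gate also asked for no transcript of Tbx6, Mesp2, Msgn1, Hand1, Foxf1, Sox17 or Hhex, 61 cells in 6 libraries and 34 cells in 6 libraries were left. In that stricter gate, 395 of all 4421 tested genes were called. Of 16 epiblast genes, 5 were lower and 1 higher there, and Tdgf1 was at −1.48 (adjusted p = 0.0833) and Otx2 at −0.32 (adjusted p = 0.368). Dppa5a stayed called under each alternative in which it was tested.

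**Figure D3:**
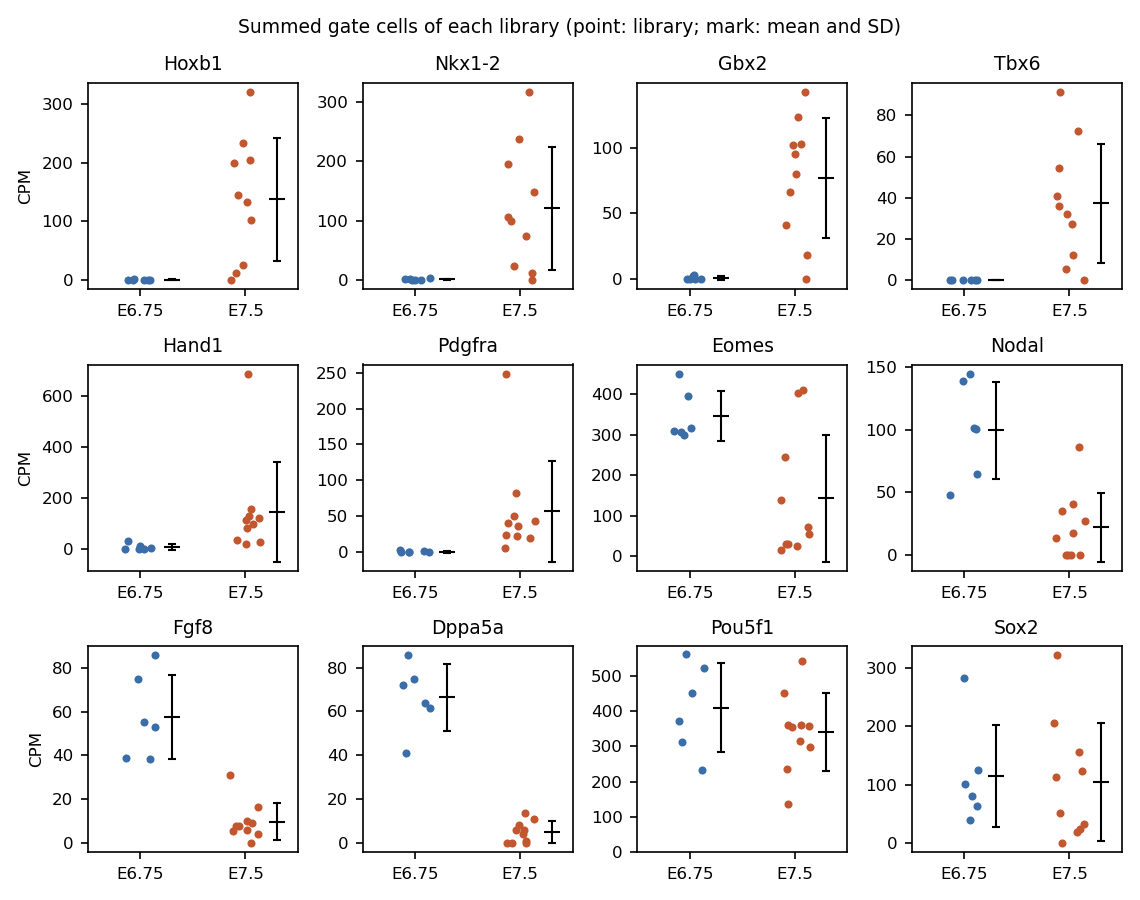
CPM of the summed gated cells of each library for named genes, 6 libraries of E6.75 and 10 of E7.5, with the mean and SD beside the points and linear axes that include 0. Dppa5a runs from 40.9 to 85.6 CPM (E6.75) and from 0 to 13.6 (E7.5), and Pdgfra from 0 to 3.16 and from 5.45 to 248.

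The streak programme itself was mixed. Of 17 listed primitive streak genes 9 were tested, with 2 higher, 4 lower and a median of −0.12. Sp5, a direct target of WNT, stood at 0, 7.51 and 21.4 CPM and then at 4.53, 77.9 and 287, and rose by 3.32 (SE 0.52, adjusted p = 6.421e-05). Fst, the gene of the activin antagonist follistatin, rose by 1.54 (adjusted p = 0.001986). Fgf8, the streak FGF ligand gene, stood at 38.2, 54.1 and 85.6 CPM and then at 0, 7.79 and 31.2, with no overlap, and fell by 2.60 (SE 0.32, adjusted p = 3.473e-06). Eomes, the T-box gene that acts with T in the early streak, stood at 299, 312 and 450 CPM and then at 14.02, 63.6 and 410. It fell by 1.48 (SE 0.46, adjusted p = 0.02582), and 2 libraries of E7.5, replicates 10 and 6, lay within the E6.75 range at 403 and 410 CPM. Without E6.75 replicate 2_14 the adjusted p of Eomes was 0.0532, with DESeq2 0.211, and in the stricter gate 0.56. Mixl1, a homeobox gene of the streak, was at 1.54 (adjusted p = 0.07686), Evx1 at −0.12 (adjusted p = 0.8762) and Snai1 at 0.68 (adjusted p = 0.1483). Without E6.75 replicate 2_14, 4 of 10 tested streak genes were higher and 3 lower. Without E7.5 replicate 12, 4 of 10 were higher and 4 lower.

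Genes of NODAL and BMP signalling went both ways. Of 31 listed NODAL and BMP genes 19 were tested, with 2 higher, 6 lower and a median of 0.14. Nodal, the ligand gene, stood at 47.9, 101 and 144 CPM and then at 0, 15.5 and 85.9, and fell by 2.32 (SE 0.48, adjusted p = 0.001252), with an adjusted p of 0.0991 in DESeq2 and a change of −1.42 in the stricter gate (adjusted p = 0.109). Lefty2, the gene of its secreted antagonist, fell by 2.24 (adjusted p = 0.004617), with 0.339 in DESeq2. Pmepa1, a feedback inhibitor gene of SMAD signalling, stood at 59.3, 85.8 and 140 CPM and then at 0, 7.10 and 38.1, without overlap (adjusted p = 1.543e-05). Skil fell by 2.05 (adjusted p = 3.672e-06) and Smad7 by 2.04 (adjusted p = 0.003056), and both encode inhibitors of the same pathway. The 2 genes that rose were Bmp4 and Smad3, a signal transducer gene. Smad3 rose by 1.10 (adjusted p = 0.02139), with 0.0546 without E6.75 replicate 1_10 and 0.0601 without 1_11. The BMP targets Id1, Id2 and Id3 were at 0.14, 0.64 and −0.07, each uncalled.

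FGF pathway genes also went both ways. Of 22 listed genes 15 were tested, with 3 higher, 7 lower and a median of −0.93. Fgf5, the epiblast ligand gene, stood at 103, 163 and 249 CPM and then at 4.01, 31.2 and 93.7, with no overlap, and fell by 2.37 (SE 0.36, adjusted p = 4.892e-05). Fgf3, a ligand gene whose window is printed above, had 2 and 267 transcripts, a ratio of 129 (35.3 to 1069, adjusted p = 8.27e-06). Its libraries stood at 0, 0 and 1.78 CPM and then at 0, 63.6 and 125. The receptor gene Fgfr1 rose by 0.64 (adjusted p = 0.01774). The feedback and target genes Spry1, Dusp6, Etv1 and Etv5 fell by 1.69, 1.24, 1.04 and 1.27 (adjusted p between 0.0002977 and 0.006327). In the stricter gate Dusp6 was at −0.63 (adjusted p = 0.318), Etv1 at −0.48 (0.471) and Etv5 at −1.17 (0.0571). Spred1, another inhibitor gene, rose by 1.09 (adjusted p = 0.001452). Il17rd fell by 1.09, with adjusted p of 0.0561, 0.0628 and 0.0554 without E6.75 replicates 1_11 and 2_14 and E7.5 replicate 3.

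WNT pathway genes rose in part. Of 29 listed genes 14 were tested, with 5 higher, 1 lower and a median of 0.51. Beside Sp5, Sp8 and Rspo3, these were Wnt8a, a ligand gene of the posterior streak, which rose by 2.04 (adjusted p = 0.001463), and Nkd1, a feedback inhibitor gene. Nkd1 stood at 0, 11.9 and 21.8 CPM and then at 34.1, 76.0 and 168, with no overlap, and rose by 2.82 (SE 0.36, adjusted p = 4.839e-06). Axin2, a general target of the pathway, stood at 28.5, 43.2 and 71.3 CPM and then at 18.1, 52.6 and 95.8, a change of 0.37 (SE 0.28, adjusted p = 0.3919). Tcf7l1, a repressor of WNT targets in the epiblast, fell by 0.80 (adjusted p = 0.005613). Of 17 NOTCH genes 5 were tested, and 1 was lower and 0 higher. Over all genes 17.7% were called, so this count is not read as a change of the pathway. The gene was Hes1, a target gene, which fell by 1.03 (adjusted p = 0.008764).

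Some genes known for neural ectoderm were higher in the gated cells of E7.5. Of 14 listed genes 7 were tested, with 4 higher, 2 lower and a median of 1.78. Foxb1, a forkhead gene of the neural plate, stood at 0, 0 and 12.5 CPM and then at 0, 70.5 and 203, and rose by 4.93 (SE 0.63, adjusted p = 5.223e-06). Irx3 rose by 4.53 (adjusted p = 4.753e-05). Irx5, its partner in the same cluster, had 2 and 183 transcripts, a ratio of 88.3 (24.1 to 734, adjusted p = 2.291e-05). Sall3 rose by 1.78 (adjusted p = 0.0001953), while Sox3 was at 0.02 (adjusted p = 0.9893). Zic2 fell by 1.10 (adjusted p = 0.007578) and Zic5 by 0.73 (adjusted p = 0.02025), and the latter had an adjusted p of 0.067 without E6.75 replicate 2_13. In the stricter gate Zic2 was at −0.30 (adjusted p = 0.569). Without E7.5 replicate 3, and likewise without replicate 7, 5 genes of the list were tested with 2 higher and 2 lower.

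Several adhesion and cytoskeleton genes of mesenchymal cells rose while the main epithelial cadherin gene was not called. Of 21 listed epithelial and mesenchymal genes 17 were tested, with 6 higher, 2 lower and a median of 0.50. Vim, the intermediate filament gene of mesenchyme, stood at 13.6, 31.8 and 45.8 CPM and then at 51.0, 247 and 799, with no overlap, and rose by 3.20 (SE 0.42, adjusted p = 8.006e-06). In the stricter gate Vim was at 1.02 (adjusted p = 0.0777). Cdh11 rose by 3.55 (adjusted p = 0.0001781), Cdh2 by 2.42 (adjusted p = 5.336e-06), Fn1 by 2.41 (adjusted p = 0.0001713) and Col4a1 by 1.72 (adjusted p = 0.0003572). These encode 2 cadherins and 2 matrix proteins. Krt8, a keratin gene of simple epithelia, rose by 2.61 (adjusted p = 0.008846), and by 1.46 without E7.5 replicate 1. Cdh1, the gene of E-cadherin, stood at 273, 292 and 485 CPM and then at 81.9, 257 and 449, a change of −0.29 (SE 0.21, adjusted p = 0.3743). Epcam fell by 0.92 and Cldn7, a claudin gene, by 1.04 (adjusted p = 0.02849 and 0.005355). The adjusted p of Epcam lay between 0.0515 and 0.0655 without any of E6.75 replicate 1_11 and E7.5 replicates 2, 4 and 6. In the stricter gate 12 genes of the list were tested and 0 were called in either direction, where 395 of all 4421 tested genes were called. Cdh2, Cdh11, Col4a1 and Krt8 were not tested in that gate.

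Immediate early genes were lower at E7.5 nearly throughout. Of 9 tested genes in a list of 16, 8 fell and none rose (median −2.13), and the summed level of the list was 83.6 to 104 per 10000 transcripts at E6.75 against 51.0 to 73.1 at E7.5. Egr1, a zinc finger factor induced by growth factor signals, stood at 164, 222 and 542 CPM and then at 2.00, 34.1 and 51.0, with no overlap, and fell by 3.33 (SE 0.33, adjusted p = 1.879e-07). Fos stood at 47.9, 79.0 and 205 CPM and then at 0, 7.27 and 19.4, and fell by 3.16 (SE 0.38, adjusted p = 2.453e-06). Dusp1 and Btg2, whose windows are printed above, fell by 2.13 and 2.38 (adjusted p = 3.37e-05 and 3.221e-05). Jun fell by 2.25 (adjusted p = 0.0001207). Hsp90aa1, a chaperone gene that makes up most of the list's sum, fell by 0.73 (adjusted p = 3.811e-06), and Dnajb1 was at 0.33 (adjusted p = 0.2172). Such genes are known to respond to cell dissociation, and the way of collecting cannot be told apart from stage here.

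Of 24 cell cycle genes, each tested, 4 were lower and none higher (median −0.18). Over all genes 17.7% were called, 9.08% lower and 8.66% higher, so this count is not read as a change of the cell cycle. Top2a fell by 0.87 (adjusted p = 0.0002029) and Cenpf by 0.78 (adjusted p = 0.00855). Mki67 and Cenpe fell by 0.66 and 0.69, but their adjusted p rose to 0.0982 and 0.0525 without E6.75 replicate 1_10, and to 0.0594 and 0.0602 without 1_11.

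Genes outside the lists were named by a set rule, as those that changed most among the genes without overlap. Phlda2, an imprinted growth regulator, stood at 8.18, 25.0 and 31.6 CPM and then at 89.8, 167 and 901, and rose by 3.59 (SE 0.49, adjusted p = 1.232e-05). Ccnd2, the gene of cyclin D2, stood at 12.1, 23.4 and 45.0 CPM and then at 81.9, 313 and 512, and rose by 3.45 (SE 0.30, adjusted p = 6.665e-08). Cited2, a transcriptional coregulator gene, rose by 2.50 (adjusted p = 2.453e-06), and H2afy, the gene of macroH2A1, by 2.21 (adjusted p = 3.278e-07). Cxx1a, Ndn, Prtg and Ror2 rose by 1.86, 1.75, 1.74 and 1.60 (adjusted p between 3.351e-06 and 0.0002584), and Ror2 is a receptor of WNT5A. In the limma fit that weighed every cell alike, Ror2 had an adjusted p of 0.0523. Cyr61, a secreted matrix protein gene, stood at 128, 243 and 304 CPM and then at 15.6, 43.7 and 81.9, and fell by 2.52 (SE 0.22, adjusted p = 6.665e-08). Sgk1, a kinase gene, fell by 2.04 (adjusted p = 6.129e-06).

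The calls of named genes depended on the gate and the model to unequal degrees. Of 88 genes named in this comparison, 24 lost their call in the stricter gate (adjusted p 0.05 to 0.99). Beside those given above, these were Dnmt3b, Slc7a3, Pou3f1, Tcf7l1, Hes1, Il17rd, Cldn7, Epcam, Fn1, Jund, Ier2, Zic5, Mki67 and Cenpe. With T of at least 2 in place of 1, 12 were lost (0.0515 to 0.449): Pou3f1, Dppa4, Dnmt3b, Eomes, Bmp4, Zic2, Zic5, Fgfr1, Dusp6, Etv1, Il17rd and Cenpf. With depth per cell as a term, 17 were lost (0.0525 to 0.33): Otx2, Pou3f1, Dppa4, Dnmt3b, Slc7a3, Eomes, Bmp4, Smad3, Zic2, Zic5, Fgfr1, Il17rd, Epcam, Cldn7, Krt8, Mki67 and Cenpf. DESeq2 did not call 10 (0.0601 to 0.339): Pou3f1, Dppa4, Dnmt3b, Slc7a3, Eomes, Nodal, Lefty2, Bmp4, Il17rd and Epcam.

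The E6.75 libraries came with 2 number prefixes, 1 and 2. With those of prefix 2 alone, 10 were lost (0.0557 to 0.32): Dppa4, Eomes, Bmp4, Smad3, Fgfr1, Il17rd, Epcam, Mki67, Cenpe and Cenpf. In the limma fit 28 were lost (0.0523 to 0.485), among them Jun, Cdh2, Col4a1, Krt8, Wnt8a, Sp8, Fst, Sall3, Spred1, Hes1, Tcf7l1, Fgfr1, Zic2 and the 3 FGF genes Dusp6, Etv1 and Etv5. In that fit, on the log2 scale with a pseudocount, Hoxb1 rose by 3.41, Nkx1-2 by 2.71, Tbx6 by 1.94 and Pdgfra by 2.35, and Dppa5a fell by 2.36 and Fos by 2.05.

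**Figure D4:**
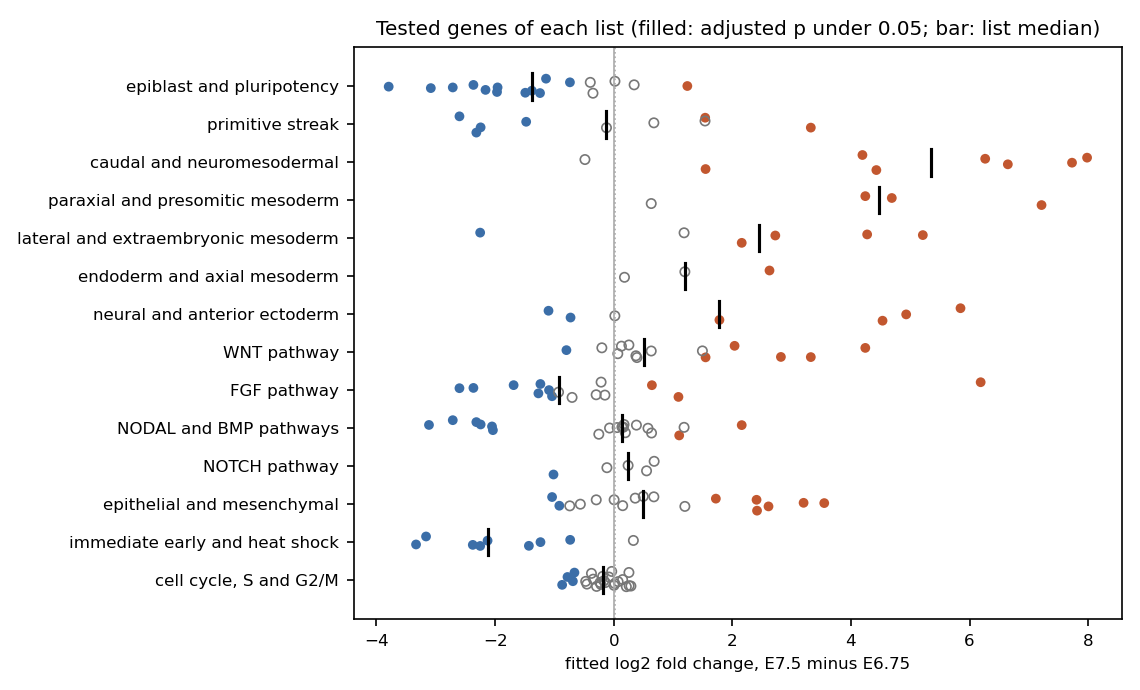
Fitted log2 fold change (E7.5 minus E6.75) of each tested gene of the lists in gated cells, filled where the adjusted p was under 0.05, with a bar at the list median. The caudal genes have a median of 5.35 over the 8 of 19 that passed the filter on low counts, and the immediate early and heat shock genes one of −2.13 over 9 of 16.

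Markers of other cell types were low in sum, and their medians were higher at E7.5. The 12 visceral endoderm genes other than the 3 used in the rule summed to 1.83 to 2.36 per 10000 at E6.75 against 1.01 to 7.06 at E7.5 (medians 1.97 and 3.51), and Afp was at 0 in both stages. Of 3 tested, Apoe rose by 1.29 (adjusted p = 0.0006224). The 10 extraembryonic ectoderm genes summed to 0.0563 to 3.39 and 0 to 4.62 (medians 0.153 and 1.08), and Cdx2 was the 1 tested. The 13 blood and endothelial genes summed to 0.133 to 0.316 and 0 to 7.13 (medians 0.202 and 0.825), and Hba-x was at 0 in both stages. The 7 germ cell genes summed to 0.252 to 0.683 and 0.0472 to 3.22 (medians 0.493 and 0.622). None of the blood, endothelial and germ cell genes passed the filter on low counts. With no such filter, 10 of 12 blood and endothelial genes were higher and none lower, and with DESeq2 5 of 12 were higher. Over all genes, 837 of 18623 were higher with no filter and 663 of 18623 with DESeq2. A gene absent at E6.75 could enter only through E7.5, so these counts describe the genes and test nothing. Tal1, a factor of blood and endothelial progenitors, had 1 and 239 transcripts, a ratio of 231 (counting interval 41.0 to 9144), and Kdr, a receptor gene of the same cells and of lateral mesoderm, 1 and 284, a ratio of 274 (48.8 to 10858). Their part in the results was not tested. Endoderm and axial genes other than Foxa2 were sparse: 3 of 16 were tested, Krt8 rose, and Sox17 was seen in 0 and 7 cells.

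The comparison with T-negative cells of the same libraries asks whether the stage change of the gated cells was their own. Collection and protocol were shared by both classes of a library. With the library as a block, in 6 libraries of E6.75 and 9 of E7.5, the change differed between the classes for 1 of 7315 genes (0.0137%) by edgeR's quasi-likelihood test with Benjamini-Hochberg adjustment, for 0 genes by DESeq2, and for 368 (5.03%) at an unadjusted p under 0.05. Of the 1096 genes that differed between the stages in gated cells, 107 had an unadjusted p under 0.05 here and 0 passed adjustment. The median SE of the difference was 0.27, so differences of modest size could not be detected at this number of libraries. Cells with T of 0 can include cells in which a transcript was missed.

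The gene that passed was Ptch1, the receptor gene of Hedgehog ligands. Its mean was 65.2 CPM (SD 17.9, n = 6) at E6.75 against 39.5 (SD 28.9, n = 9) at E7.5 in gated cells, and 56.4 (SD 12.1, n = 6) and 98.9 (SD 74.6, n = 9) in T-negative cells. The difference of the changes was −1.48 (SE 0.25, adjusted p = 0.0115). The call was lost without E6.75 replicate 1_10 (adjusted p = 0.0548) or 1_11 (0.0837), without E7.5 replicate 2 (0.155), with DESeq2 (0.0555), with T of at least 2 (0.14) and with no library block (1).

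The caudal genes that rose in gated cells were also present in T-negative cells at E7.5, at lower means. Hoxb1 averaged 0.306 CPM at E6.75 and 127 at E7.5 in gated cells, and 0.722 and 34.8 in T-negative cells. The difference of the 2 changes was 3.01 with an interval of 2 SE from −0.77 to 6.80. Pdgfra averaged 0.821 and 53.0 CPM against 1.22 and 52.3, with a difference of 0.31 (−1.90 to 2.52). Hand1 averaged 8.60 and 149.5 CPM against 11.04 and 181, with a difference of −0.75 (−2.29 to 0.79). Eomes was higher in gated cells at both stages, at 352 and 127 CPM against 123 and 51.2, with a difference of −0.33 (−0.89 to 0.24). The fitted values of Hoxb1 and Pdgfra rest on few transcripts at E6.75 and depend on the prior count of the fit.

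The comparison with T Mesp1 cells asks how the gated cells changed relative to the nearest cells with T. Only 2 libraries of E6.75, replicates 2_13 and 2_14, held 3 or more T Mesp1 cells, against 9 of E7.5. The change differed for 43 of 7993 genes (0.538%), 38 with a more positive change in gated cells (0.475%) and 5 with a more negative one (0.0626%), and 513 (6.42%) had an unadjusted p under 0.05. DESeq2 called 14. Without replicate 2_13, 16 genes were called, and without 2_14, 17, with the remaining single library of E6.75 assumed to vary as the others did. Of the 1096 genes that differed between the stages, 22 were among the 43.

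These 38 genes were chosen by the test for a more positive change in gated cells, so a lower start in gated cells and a smaller gap at E7.5 nearly restate the choice. Both held for all 38 (ratio of mean CPM plus 1), as a description. Of the 10 genes named by rule here, 6 were not called by DESeq2 (adjusted p 0.0533 to 0.603): Fgf3, Kdr, Cyp26a1, Gata6, Chaf1b and Pvrl1. With no library block, 7 were not called (0.0892 to 0.939): Irx5, Kdr, Cyp26a1, Gata6, Chaf1b, Pvrl1 and Fgf5. With T of at least 2, Irx5 and Pvrl1 were not called (0.0543 and 0.102). Cdh11 averaged 2.80 CPM in gated cells at E6.75 and 61.7 at E7.5, and 177 and 79.4 in T Mesp1 cells, a difference of 5.11 (adjusted p = 6.379e-06), and of 9.03 without replicate 2_14. Cyp26a1, the gene of a retinoic acid-degrading enzyme, averaged 3.79 and 37.2 CPM against 227 and 58.9 (difference 5.67, adjusted p = 9.853e-05). Gata6, a factor of mesendoderm, averaged 2.06 and 27.9 CPM against 186 and 49.8 (5.54, adjusted p = 0.002268), and its adjusted p was 0.0532 without replicate 2_14. Fgf3 averaged 0.865 and 59.3 CPM against 118 and 89.1 (6.64, adjusted p = 0.0002508).

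Kdr, the receptor gene of haemato-endothelial progenitors, averaged 0.399 and 54.4 CPM in gated cells against 64.3 and 59.7 in T Mesp1 cells (difference 6.35, adjusted p = 0.005081), and its adjusted p was 0.294 without replicate 2_14 and 0.603 with DESeq2. It was 1 of 3 called among 8 tested blood and endothelial genes, all 3 with a more positive change in gated cells. Tal1 averaged 0 and 42.0 CPM in gated cells against 24.2 and 4.41 (adjusted p = 3.296e-05), and Etv2 averaged 14.9 and 36.0 CPM against 184 and 22.6 (adjusted p = 0.04727). The part of blood and endothelial transcripts in the differences of other genes was not tested. Irx5 averaged 0 and 43.9 CPM against 42.6 and 52.2 (adjusted p = 0.002081), with 0.18 without replicate 2_14. The fitted differences of Irx5, Fgf3 and Kdr stand on 0 or few transcripts in gated cells of E6.75 and depend on the prior count. Of 16 streak genes tested here, 5 differed this way: Sp5, Mixl1, Lhx1, Snai1 and Cyp26a1. In T Mesp1 cells of E6.75, Mixl1 averaged 535 CPM and Lhx1 596, against 21.2 and 8.39 in gated cells.

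In the other direction, Mid1ip1, a regulator of lipid synthesis, averaged 191 and 91.1 CPM in gated cells and 39.8 and 105 in T Mesp1 cells, a difference of −2.38 (adjusted p = 8.357e-05). It and Cdh11 were the 2 of the 10 genes named by rule in this comparison that stayed called under each alternative run. Fgf5 averaged 216 and 39.4 CPM against 49.2 and 34.2 (−1.93, adjusted p = 0.005081), with 0.27 without replicate 2_13 and 0.0992 without 2_14. Chaf1b, a chromatin assembly gene, averaged 113 and 95.3 CPM against 41.1 and 107 (−1.51, adjusted p = 0.0251), with an adjusted p of 1 without 2_13 and a difference of −2.36 without 2_14. Pvrl1, a nectin gene, averaged 62.9 and 39.4 CPM against 25.6 and 55.3 (−1.78, adjusted p = 0.03201). Its adjusted p was 0.346 without 2_13, 0.658 without 2_14 and 0.0645 without E7.5 replicate 7.

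**Figure D5:**
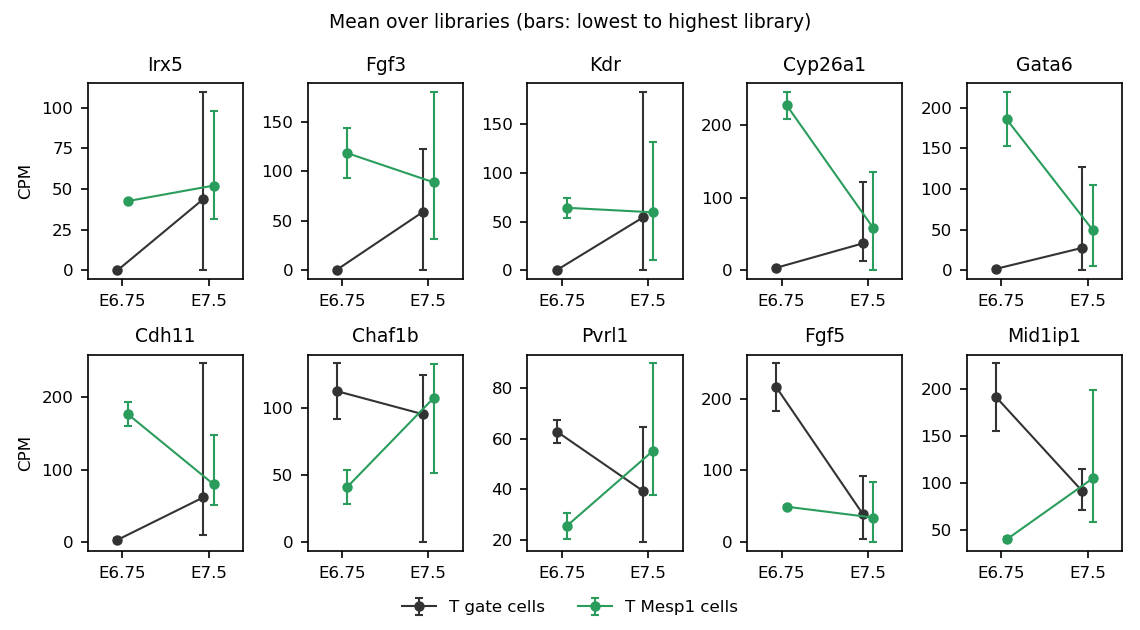
Mean CPM at E6.75 (2 libraries) and E7.5 (9 libraries) in gated cells (T gate cells) and in T Mesp1 cells for genes whose stage change differed between the classes, with bars from the lowest to the highest library. Cdh11 goes from 2.80 to 61.7 in gated cells and from 177 to 79.4 in T Mesp1 cells.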

How the data were processed

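Single cells of 6 E6.75 and 12 E7.5 libraries were profiled with CEL-Seq2 and mCEL-Seq2, which count molecular identifiers at the 3' end, per the labels. The deposited values are expected counts, estimated transcript numbers that the authors had corrected for molecular identifiers drawn more than once; the values fit that formula, and they were rounded to whole numbers here. The submitters' processing notes name bcl2fastq 2.17.1.14 and BWA 0.6.2-r126. The genome build, annotation, counting program and use of strand are not given in the sources used here, so genes that overlap others in the annotation (Ccnd2, Prtg, Dusp1, Gbx2, Irx3, Foxb1 and Nkx1-2 among those named) are uncertain. Each library has 192 barcode columns, of which 96 were used: 8 libraries used the first 96, 8 the second 96 and 2 an interleaved set, so barcodes recur between libraries by plate design. Depth is the sum of 22997 nuclear features, leaving out 74 spike-ins and 22 mitochondrial genes. No 2 libraries held identical sums (0 pairs). No doublet caller was run; an alternative dropped the cells deeper than 3 times the median of their library.

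Rounded transcripts of gated cells were summed per library and tested in R 4.3.3 with edgeR 4.0.16 (TMM, filterByExpr, quasi-likelihood F test, Benjamini-Hochberg adjustment at 0.05). T, Mesp1, Foxa2, Ttr, Apoa1 and Spink1 were left out of the tested genes. Differences of the stage change between 2 classes of cells were tested as an interaction, with the library as a block. DESeq2 1.42.0 and limma 3.58.1 (log2 of the mean per 10000 with a pseudocount of 0.1) were alternatives. SE is the fold change divided by the square root of F. CPM use TMM-scaled library sizes. Named genes were those with an adjusted p under 0.05, a mean of at least 50 CPM in 1 stage and no overlap between stages, the 12 with the largest rise and the 12 with the largest fall, leaving aside ribosomal and predicted genes; up to 6 in each direction for an interaction; and members of 18 gene lists. Thinning drew 2000 transcripts per cell. Some genes that the rule or the lists hold are counted but not reported here by name. The scripts were tested on simulated data. The gate, the members and the lists were chosen with earlier results of these data known.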

Additional observations from a re-analysis of the deposited data

Results flagged for a closer look

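In groups of libraries, the highest or lowest value was set against the gap to the next one, and chance marks about 1 in 20 such groups. Of 60 groups checked in gated cells, 6 had a library apart from the others. E7.5 replicate 1 stood apart in 3 of them, with 248.2 CPM of Pdgfra (next highest 81.9), 799.4 CPM of Vim (next 379) and 168.1 CPM of Nkd1 (next 91.8). E7.5 replicate 2 had 277.6 CPM of Cited2 (next 164) and E7.5 replicate 6 had 31.2 CPM of Fgf8 (next 16.3). E6.75 replicate 1_11 had 205 CPM of Fos (next 92.8). Where a gene was tested without the library that stood apart for it, it stayed called in the same direction. Pdgfra was not tested without E7.5 replicate 1.

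The stage change differed between gated cells and another class in the tests reported above. Against T-negative cells this was Ptch1, at −1.48. Against T Mesp1 cells, the difference was 6.99 for Irx5, 6.64 for Fgf3, 6.35 for Kdr, 5.67 for Cyp26a1, 5.54 for Gata6 and 5.11 for Cdh11. It was −1.51 for Chaf1b, −1.78 for Pvrl1, −1.93 for Fgf5 and −2.38 for Mid1ip1.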

How the results depend on the processing

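The number of genes that differed between stages in gated cells was 1096, 913 to 1192 without 1 library, and 1181 with DESeq2 (894 shared). It was 1668 with no filter on low counts, 62 of 289 tested after thinning each cell to 2000 transcripts, 631 with T of at least 2, 395 in the stricter gate, 695 with depth per cell as a term and 338 with limma (310 shared). For the difference from T-negative cells, the 1 gene became 0 with DESeq2, after thinning and with T of at least 2, 32 with no filter, 2 with observed molecular identifiers, 7 with at least 5 cells, and 0 to 7 without 1 library. For the difference from T Mesp1 cells, the 43 genes became 14 with DESeq2, 85 with no filter, 1 after thinning, 24 with T of at least 2, and 16 to 53 without 1 library. With no replicate block, that is without the library in the model, these 2 comparisons gave 0 and 5 genes. Replicate numbers do not pair libraries between stages. Of 88 genes named in the stage comparison, 48 were called under every alternative in which they were tested. One value changed sign, Zic5 in the stricter gate at 0.0077 (adjusted p = 0.99). The cause of these shifts was not tested; thinning, the stricter gate and T of at least 2 leave fewer transcripts, cells or libraries. Depth was lowest in E7.5 replicate 9, with 3 gated cells; without it the number of genes was 1166.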
